A study of Rattus norvegicus with 24 samples.

Results

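The nucleus accumbens (NAc) transcriptome of rats that self-administered heroin was compared with that of rats that self-administered saline. The comparison used the 4 Heroin-SA and 4 Saline-SA libraries of a series of 24 libraries in 6 groups, and the members were chosen by their labels alone. Adult male Sprague Dawley rats, 8 weeks old, received a jugular vein catheter and then pressed a lever for intravenous infusions in 10 daily sessions of 6 h, under a schedule in which each response earned an infusion. Heroin-SA rats received 0.075 mg/kg heroin per infusion and Saline-SA rats received saline. Both groups had surgery, single housing and a reversed light cycle, and both were killed immediately after the last session. Each library came from 1 rat and held core and shell of the NAc together. Self-administered intake differs from rat to rat, and the infusions of each rat were not analysed here. Where injected heroin is compared, Saline-Heroin and Saline-Saline rats (4 libraries each) had first received intermittent saline injections and then, over 5 days, intraperitoneal saline or heroin rising from 1 to 5 mg/kg. They were pair-housed on a normal light cycle and were killed after a locomotor test that followed the last injection. LPS-Saline and LPS-Heroin rats received lipopolysaccharide (LPS), a bacterial activator of innate immunity, in place of the first saline injections, and their 8 libraries enter only the fit over all 24 libraries.

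Heroin is converted in the body to active products, morphine among them, that act on opioid receptors. These receptors are abundant in the NAc, a ventral striatal region that takes part in reward. Most NAc neurons are GABAergic medium spiny neurons, which express either Drd1 or Drd2, and bulk tissue also holds interneurons, glia and vessels. Among the systems described here, heat shock chaperones fold and refold cytosolic proteins and are induced through heat shock factors, and chaperones of the endoplasmic reticulum (ER) are induced by the unfolded protein response (UPR). Cold-inducible RNA-binding proteins rise at low and fall at high temperature, and immediate early genes respond to neuronal activity within minutes. In bulk tissue, fewer cells of a type and less RNA per cell cannot be told apart.

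Levels were FPKM, the fragments on a gene per kilobase of its length, scaled to the library's depth. Heroin-SA libraries held 13703998 to 15039440 gene-assigned reads each and Saline-SA libraries 14587621 to 18288437. The tissue carried striatal markers in every library: Ppp1r1b (DARPP-32) lay between 942 and 1180 FPKM in Heroin-SA and between 803 and 1452 FPKM in Saline-SA, and Drd1 and Drd2 averaged 82.6 and 63.0 FPKM in Heroin-SA. The choroid plexus marker Ttr was near 0, with means of 0.412 and 0.361 FPKM. Saline-SA 3 and Saline-SA 4 stood apart from the other libraries, the first by the second principal component and the latter by the first, and they had the highest shares of reads on mitochondrially encoded genes, 15.9% and 14.1%. Heroin-SA 4 and Heroin-SA 3 also lay far from the centre, toward opposite ends of the second component. Slc17a7, a marker of cortical glutamatergic neurons, was at 36.6 FPKM in Heroin-SA 4 and 40.8 in Saline-SA 3 against 162 to 340 in the other 6 libraries. Hba1, a hemoglobin gene of red blood cells, was at 1633 FPKM in Heroin-SA 4 and 2949 in Saline-SA 4 against 348 to 703 in the others. The part of these differences between libraries in the results below was not tested, other than by leaving libraries out.

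Of 15024 genes tested, 819 (5.45%) had an unadjusted p of at most 0.05 and a change of at least 1.3-fold, the limits that the study used for its pattern analyses. Genes past these limits are called upregulated or downregulated here: 457 (3.04%) were upregulated and 362 (2.41%) downregulated in Heroin-SA, and 180 of the 819 changed more than 2-fold. No gene passed an adjusted p of 0.05 in limma; the lowest value was 0.0921. A p under 0.05 without adjustment was reached by 1725 genes, where 751 would pass at that limit if no gene differed. The FPKM ranges of the groups did not overlap for 1021 genes (6.8%). When the spread was estimated from all 24 libraries of the series, 78 genes passed an adjusted p of 0.05 in limma, 54 upregulated and 24 downregulated, of which 52 were among the 819. That fit takes the spread of a gene as equal in all 6 groups, which was not tested, so its adjusted p-values may be too small where SA libraries vary more. Without Saline-SA 3 and Saline-SA 4 together, 544 genes were past the limits, 280 of them among the 819. Each gene below is therefore given with its values, and calls that ended without a single library are named.

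Cytosolic chaperones were higher in Heroin-SA. Of 59 listed genes tested, 8 were upregulated and none downregulated, 47 of the 59 had a positive log2 fold change, and their median log2 fold change was 0.18, against a median of 0.01 over all genes. The mean level of the list was 5.03 to 5.18 on the log2 scale in the 4 Heroin-SA libraries and 4.87 to 4.89 in the 4 Saline-SA libraries. Upregulated members were the Hsp90 co-chaperone Chordc1, the Hsp90 activator Ahsa2, the Hsp110 family member Hsph1, the small heat shock protein Cryab and the J-domain proteins Dnaja1, Dnajb2, Dnajc3 and Dnajc5, which stimulate Hsp70 proteins. Of these, Dnajc3 acts in the ER and is also on the list of ER chaperones below, so its call counts in both lists. Chordc1 (ENSRNOG00000026643, rn6 chr8:17421557-17446165) was at 33.0, 29.3, 31.9 and 39.0 FPKM in Heroin-SA and at 20.0, 22.9, 19.6 and 19.7 FPKM in Saline-SA. All Heroin-SA libraries were above all Saline-SA libraries, with a log2 fold change of 0.69 ± 0.098 (SE, limma adjusted p = 0.198, 0.0181 in the fit over 24 libraries). Cryab was at 110, 91.4, 89.5 and 161 FPKM in Heroin-SA and at 71.3, 62.3, 61.5 and 69.4 FPKM in Saline-SA. Its groups did not overlap, and Heroin-SA 4 was highest by a wide margin (log2 fold change 0.73 ± 0.17, SE).

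Dnaja1 was at 181, 185, 168 and 226 FPKM in Heroin-SA and at 152, 132, 149 and 124 FPKM in Saline-SA. Hsph1 was at 167, 161, 148 and 207 FPKM against 128, 132, 130 and 111. Dnajb2, a J-domain protein enriched in neurons, was at 117, 108, 113 and 131 FPKM against 94.4, 90.5, 85.2 and 87.0. In these 3 genes the groups did not overlap and Heroin-SA 4 was the highest library, and each call ended without it: the log2 fold changes were then 0.36, 0.34 and 0.34, close to the 1.3-fold limit of 0.378. Dnajb2 was also just under the limit without Saline-SA 3, at 0.37. Dnajc3 was not past the limits without Heroin-SA 4 (0.28) or Saline-SA 1 (0.35), and Dnajc5, the cysteine string protein of synaptic vesicles, without any of 5 single libraries (0.33 to 0.44). Without Heroin-SA 4 the list held 3 upregulated members, and 9 to 12 without any other single library. When Saline-SA 3 and 4 were both left out 11 were upregulated, and the log2 fold change of Dnajb2 was then 0.34. In the fit over 24 libraries, Dnaja1, Dnajb2, Chordc1, Ahsa1 and Fkbp4 passed an adjusted p of 0.05 in limma. Hsp90ab1, the constitutive Hsp90, averaged 680 ± 66.7 FPKM in Heroin-SA and 555 ± 34.7 in Saline-SA (SD, n = 4 each) with a log2 fold change of 0.29, under the fold limit. The inducible Hsp70 genes gave no clear value: Hspa1a was below the level filter, and Hspa1b, its near-identical copy, had means of 3.58 and 2.46 FPKM.

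Promoters of 3 upregulated cytosolic chaperones are printed because they hold a heat shock element, the site bound by heat shock factors. The search was for TTCNNGAANNTTC on either strand (GAANNTTCNNGAA on the other) in the 300 bases from 250 before to 50 after each RefSeq start (build GRCr8). It was found in 267 of 33469 promoters (0.798%) and in 5 of the 48 tested chaperones with a promoter entry: Chordc1, Dnaja1 and Hsph1, which were upregulated, and Cct4 and Hspa8, which were not. Of these 5, 4 had a positive log2 fold change. Capitals mark the element, which overlaps itself 3 times in Chordc1.
Chordc1, chr8:23650571-23650870, plus strand: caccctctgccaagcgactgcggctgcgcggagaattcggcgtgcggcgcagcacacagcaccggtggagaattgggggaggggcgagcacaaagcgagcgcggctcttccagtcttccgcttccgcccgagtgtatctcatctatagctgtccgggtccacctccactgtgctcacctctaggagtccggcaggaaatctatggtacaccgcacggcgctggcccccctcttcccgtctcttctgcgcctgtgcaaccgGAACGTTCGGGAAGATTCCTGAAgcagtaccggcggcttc
Dnaja1, chr5:60638154-60638453, plus strand: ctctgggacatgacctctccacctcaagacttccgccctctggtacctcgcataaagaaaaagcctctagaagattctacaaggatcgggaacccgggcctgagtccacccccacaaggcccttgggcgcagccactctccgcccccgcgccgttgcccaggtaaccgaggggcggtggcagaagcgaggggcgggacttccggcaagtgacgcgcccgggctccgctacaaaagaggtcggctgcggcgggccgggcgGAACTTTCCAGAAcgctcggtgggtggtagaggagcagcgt
Hsph1, chr12:10427118-10427417, plus strand: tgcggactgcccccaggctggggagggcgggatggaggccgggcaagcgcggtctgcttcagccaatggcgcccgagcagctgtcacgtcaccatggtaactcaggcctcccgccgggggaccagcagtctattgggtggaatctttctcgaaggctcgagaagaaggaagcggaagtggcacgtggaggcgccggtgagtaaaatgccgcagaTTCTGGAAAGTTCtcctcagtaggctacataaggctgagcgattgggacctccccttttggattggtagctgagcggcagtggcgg
Counted from the start site as 0, the element lay at 10 to 32 in Chordc1, at 9 to 21 in Dnaja1 and at -36 to -24 in Hsph1. A match is a description of these letters and does not show that a factor was bound in this tissue.

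Chaperones of the ER were also higher in Heroin-SA. Of 26 listed genes tested, 5 were upregulated (Sdf2l1, Pdia6, Xbp1, Hspa5 and Dnajc3, which is on both chaperone lists), none was downregulated and 24 had a positive log2 fold change, with a median of 0.26. The mean level of the list was 4.88 to 5.08 on the log2 scale in Heroin-SA and 4.71 to 4.77 in Saline-SA. Hspa5 encodes BiP, the main Hsp70 of the ER lumen (ENSRNOG00000018294, rn6 chr3:13838304-13842762). It was at 170, 152, 176 and 212 FPKM in Heroin-SA and at 125, 128, 130 and 152 FPKM in Saline-SA, and the highest Saline-SA library lay next to the lowest Heroin-SA library. Its log2 fold change was 0.40 ± 0.11 (SE, limma adjusted p = 0.331), and 0.32 without Heroin-SA 4 and 0.37 without Saline-SA 1, both under the fold limit. Sdf2l1, a cofactor of BiP, was at 21.1, 17.3, 22.5 and 28.4 FPKM against 14.3, 12.7, 12.9 and 15.5, with no overlap (log2 fold change 0.67 ± 0.14, SE). Pdia6, a protein disulfide isomerase, was at 86.5, 76.2, 89.9 and 94.3 FPKM against 64.4, 74.7, 58.2 and 60.4. Xbp1, the transcription factor of the UPR, was at 114, 86.2, 106 and 103 FPKM against 78.2, 69.3, 67.2 and 88.1, and here Heroin-SA 2 lay below Saline-SA 4. Sdf2l1, Pdia6 and Xbp1 stayed past the limits without any single library. The list held 3 upregulated members without Heroin-SA 4 or Saline-SA 1, and 8 without Saline-SA 3 and 4 together, where Pdia6, at 0.32, was not among them. In the fit over 24 libraries, Pdia6, the lectin chaperone Calr and the nucleotide exchange factor Hyou1 passed an adjusted p of 0.05 in limma. Chaperones and proteases of mitochondria did not move with them: none of 14 was past the limits, and their median log2 fold change was -0.04.

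The promoters of 3 upregulated ER genes are printed because they hold the ER stress response element, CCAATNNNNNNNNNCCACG, through which UPR factors act. On either strand (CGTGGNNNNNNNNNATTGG on the other) it was found in 22 of 33469 promoters (0.0657%) and in 7 of the 18 tested ER genes with a promoter entry. All 7 had a positive log2 fold change: Hspa5, Xbp1 and Dnajc3 were upregulated, and Calr, Canx, Creld2 and Hsp90b1 were not past the limits. Capitals mark the element.
Hspa5, chr3:38452766-38453065, plus strand: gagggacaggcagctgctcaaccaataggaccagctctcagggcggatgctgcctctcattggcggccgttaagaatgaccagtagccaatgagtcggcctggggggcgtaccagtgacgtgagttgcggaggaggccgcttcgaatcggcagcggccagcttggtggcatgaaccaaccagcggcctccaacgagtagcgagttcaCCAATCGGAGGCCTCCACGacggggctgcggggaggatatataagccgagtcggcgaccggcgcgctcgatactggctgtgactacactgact
Xbp1, chr14:84604373-84604672, plus strand: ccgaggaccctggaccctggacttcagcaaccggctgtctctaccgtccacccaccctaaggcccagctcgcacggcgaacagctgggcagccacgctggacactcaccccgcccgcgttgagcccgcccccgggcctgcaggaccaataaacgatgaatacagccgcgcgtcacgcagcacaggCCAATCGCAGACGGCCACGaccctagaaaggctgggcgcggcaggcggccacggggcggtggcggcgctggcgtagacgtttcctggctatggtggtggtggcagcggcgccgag
Dnajc3, chr15:102432417-102432716, plus strand: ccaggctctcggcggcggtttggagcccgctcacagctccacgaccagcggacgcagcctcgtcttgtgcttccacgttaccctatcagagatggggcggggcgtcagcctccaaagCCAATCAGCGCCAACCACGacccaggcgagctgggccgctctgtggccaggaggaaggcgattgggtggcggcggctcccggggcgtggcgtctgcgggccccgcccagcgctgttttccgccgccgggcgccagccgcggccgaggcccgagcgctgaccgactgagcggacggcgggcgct
It lay at -43 to -25 from the start in Hspa5, at -65 to -47 in Xbp1 and at -133 to -115 in Dnajc3. Hsp90b1 (GRP94) had means of 121 and 93.7 FPKM and a log2 fold change of 0.36, just under the fold limit.

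**Figure D1:**
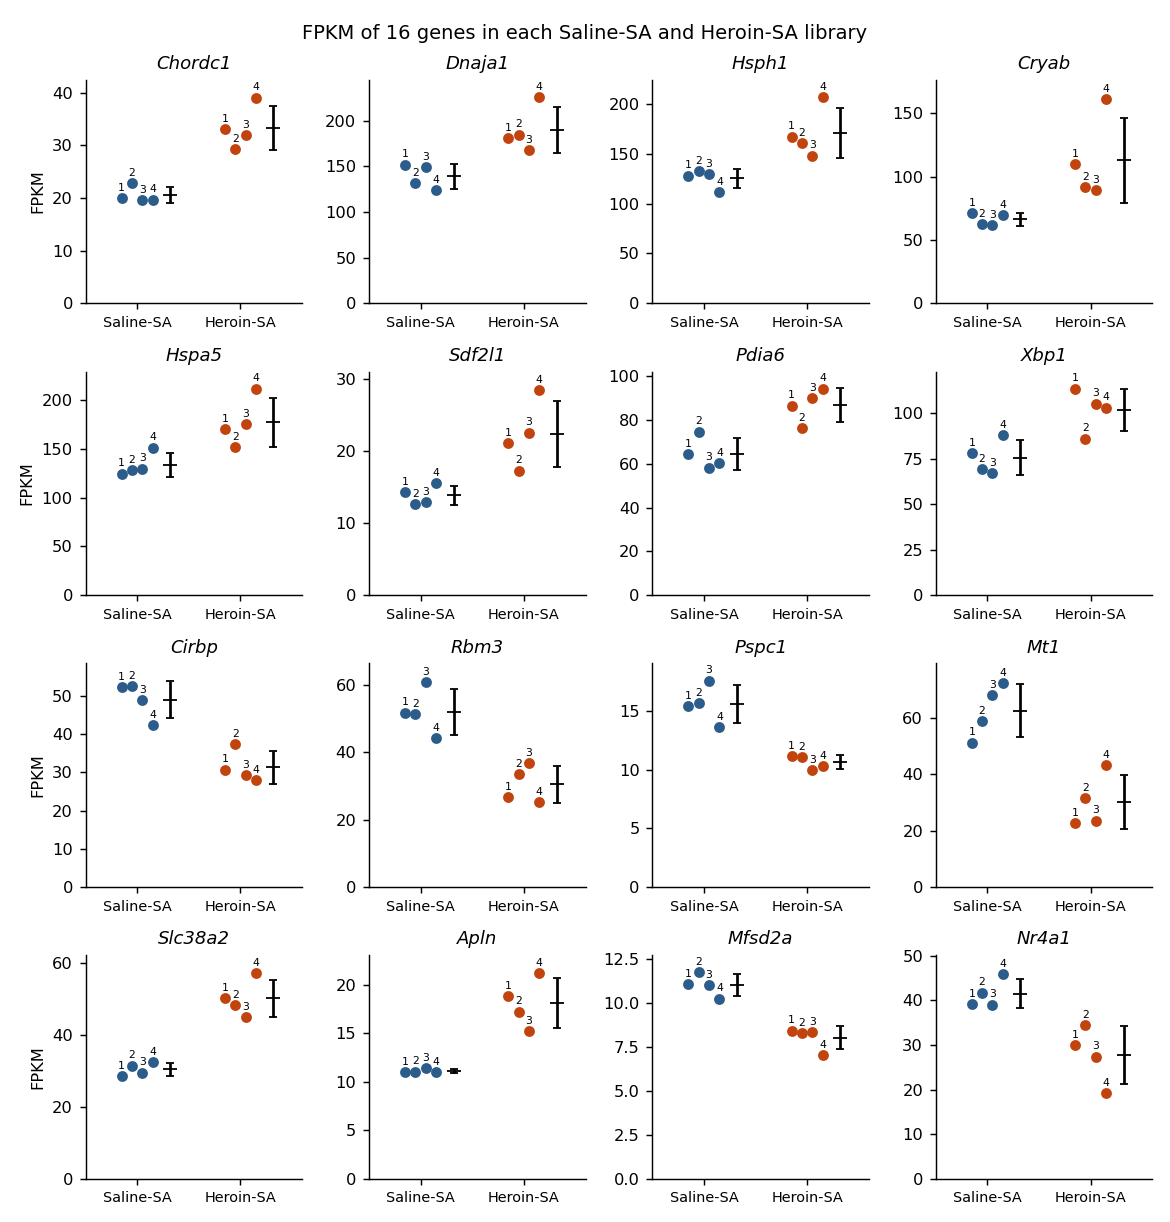
FPKM of 16 genes in each of the 4 Saline-SA (blue) and 4 Heroin-SA (red) libraries, with replicate numbers beside the points and the mean ± SD in black, on linear axes from 0. Of the 16 genes only Xbp1 shows overlap between groups, and for Hspa5 and Pdia6 the groups lie close together. Heroin-SA 4 is the highest library for Chordc1, Dnaja1, Hsph1, Cryab, Hspa5, Sdf2l1 and Pdia6.

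In the opposite direction, the cold-inducible RNA-binding genes Cirbp and Rbm3 and the paraspeckle gene Pspc1 were downregulated in Heroin-SA. These 3 were the downregulated members among 11 genes tested, with Tardbp (TDP-43) upregulated. The list did not move one way, since 7 of the 11 had a positive log2 fold change and the median was 0.04. The 3 were past the limits under every alternative fit and without every single library. Cirbp (ENSRNOG00000015999, rn6 chr7:12401207-12405022) was at 30.7, 37.4, 29.2 and 27.9 FPKM in Heroin-SA and at 52.4, 52.7, 48.9 and 42.4 FPKM in Saline-SA. Rbm3 (ENSRNOG00000005387, rn6 chrX:15098904-15102340) was at 26.8, 33.6, 36.7 and 25.1 FPKM against 51.8, 51.3, 60.8 and 44.1. Pspc1 (ENSRNOG00000020782, rn6 chr15:36950257-37030281), whose protein is a core component of paraspeckles, was at 11.2, 11.1, 9.97 and 10.3 FPKM against 15.4, 15.7, 17.6 and 13.7. In all 3 every Heroin-SA library was below every Saline-SA library. The log2 fold changes were -0.65 ± 0.11 for Cirbp, -0.77 ± 0.14 for Rbm3 and -0.54 ± 0.093 for Pspc1 (SE). Their adjusted p-values in limma were 0.235 to 0.255 over the 8 libraries, and 0.0143, 0.0088 and 0.00195 in the fit over 24. Without Saline-SA 3 and 4 together the log2 fold changes were -0.75, -0.77 and -0.55. Tardbp lost its call without any of 4 single libraries, Heroin-SA 2 or 4 or Saline-SA 3 or 4 (0.27 to 0.35).

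Amino acid transporters moved singly rather than as a list. Of 48 tested, 3 were upregulated (Slc38a2, Slc1a2 and Slc6a20) and 1 was downregulated (Slc7a5), and the median log2 fold change was 0.04. Slc38a2 (SNAT2; ENSRNOG00000006305, rn6 chr7:138088649-138100841) carries small neutral amino acids into cells together with sodium and had the smallest p of all genes with a regular symbol. It was at 50.2, 48.4, 45.0 and 57.3 FPKM in Heroin-SA and at 28.6, 31.5, 29.5 and 32.6 FPKM in Saline-SA. The lowest Heroin-SA library was well above the highest Saline-SA library, and the log2 fold change was 0.71 ± 0.085 (SE, limma adjusted p = 0.115, and 0.000432 in the fit over 24 libraries). Leaving out single libraries kept it between 0.65 and 0.76. Slc7a5 (LAT1), which carries large neutral amino acids across the blood-brain barrier, was at 17.2, 16.99, 16.8 and 12.85 FPKM against 20.7, 19.9, 21.1 and 21.0. The groups did not overlap, but the fold was under the limit without Heroin-SA 4 (log2 fold change -0.28), Saline-SA 3 or Saline-SA 4 (-0.37 each). Slc1a2, the main glutamate transporter of astrocytes, was at 36.4, 61.0, 29.9 and 71.1 FPKM against 27.9, 30.4, 27.7 and 26.5, with Heroin-SA 2 and 4 far above the rest and Heroin-SA 3 within the Saline-SA range. The Slc1a2 call held without any single library (0.53 to 0.94). Slc6a20, a proline transporter, lost its call without any of 4 single libraries, Heroin-SA 1 or 4 or Saline-SA 2 or 3 (0.39 to 0.54). Among 40 targets of the amino acid response and ATF4, only Cth was past the limits, downregulated (means 1.39 ± 0.326 and 2.27 ± 0.576 FPKM, SD, n = 4), and not without Heroin-SA 2, Saline-SA 2 or Saline-SA 3 (-0.50 to -0.59). Atf4 itself averaged 132 ± 20.3 and 125 ± 9.61 FPKM.

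Vascular genes changed singly and in both directions. Of 37 genes of apelin, Notch, VEGF and other angiogenic signaling, Apln, Edn1 and Fgf2 were upregulated and Fgf1, Hey2 and Tgfb1 were downregulated, with a median log2 fold change of -0.05. Apln (ENSRNOG00000003984, rn6 chrX:134856726-134866210), which encodes the peptide apelin, was at 18.8, 17.2, 15.2 and 21.2 FPKM in Heroin-SA and at 10.95, 11.03, 11.43 and 10.97 FPKM in Saline-SA. Saline-SA libraries were nearly equal and all Heroin-SA libraries lay above them (log2 fold change 0.69 ± 0.10, SE, limma adjusted p = 0.198, 0.031 in the fit over 24 libraries). Edn1, the vasoconstrictor endothelin 1, was at 4.64, 3.73, 3.21 and 3.30 FPKM against 2.08, 2.32, 2.15 and 2.53, again with no overlap. Fgf2 was at 2.46, 4.19, 2.40 and 4.09 FPKM against 2.14, 1.59, 1.44 and 1.99, and shares bases with Nudt6 on the opposite strand, from which it cannot be told apart because the strand setting of the counting is not given in the sources used here. All 3 stayed past the limits without any single library. With both Saline-SA 3 and 4 left out, no member of the list was downregulated and 4 were upregulated. Fgf1, a fibroblast growth factor, was at 2.13, 2.29, 3.57 and 4.89 FPKM in Saline-SA and its log2 fold change of -0.84 was then -0.40. Tgfb1 was not past the limits without Heroin-SA 3 (-0.39), Heroin-SA 4 (-0.30) or Saline-SA 4 (-0.30).

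Of 32 genes of the brain endothelium itself none was upregulated and 3 were downregulated (Mfsd2a, Slc7a5 and Ramp2), with a median log2 fold change of -0.04. Mfsd2a, the endothelial transporter of lysophospholipids that carry omega-3 fatty acids, was at 8.40, 8.26, 8.35 and 7.02 FPKM in Heroin-SA and at 11.1, 11.7, 11.01 and 10.2 FPKM in Saline-SA. All Heroin-SA libraries were below all Saline-SA libraries, with a log2 fold change of -0.46 ± 0.092 (SE, limma adjusted p = 0.255) that held without any single library. Ramp2, a subunit of the adrenomedullin receptor, was at 13.6, 9.12, 10.8 and 11.8 FPKM against 10.7, 14.1, 19.1 and 22.9, and without Saline-SA 3 and 4 its log2 fold change was -0.13. The Ramp2 call ended without any 1 of 6 libraries, all but Heroin-SA 1 and Saline-SA 1 (-0.34 to -0.57). Cldn5, the tight junction claudin of these cells, averaged 59.0 and 63.9 FPKM. None of 27 mural cell and fibroblast genes was past the limits. Among 27 hypoxia targets only P4ha1, a collagen prolyl hydroxylase, was (31.2, 30.3, 29.2 and 40.7 FPKM against 21.5, 19.4, 22.7 and 25.5), while Vegfa averaged 70.0 and 66.5 FPKM.

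Few mitochondrial genes were past the limits. Mitochondrially encoded genes took 11.02%, 10.5%, 11.8% and 10.0% of the reads on genes in Heroin-SA and 10.7%, 11.1%, 15.9% and 14.1% in Saline-SA. The mean was 10.8% ± 0.743 against 12.9% ± 2.47 (SD, n = 4 each), and the difference of -2.11 percentage points did not pass a exact 2-sided permutation test (p = 0.171, where 4 against 4 libraries allow no p below 0.0286). The difference was -0.075 points without Saline-SA 3 and 4. Of 32 mitochondrially encoded genes tested, 2 transfer RNA genes, AY172581.2 and AY172581.3, were downregulated and no protein-coding one was past the limits. AY172581.2 was not past them without Heroin-SA 4, Saline-SA 1 or Saline-SA 3 (-0.41 to -0.50), nor AY172581.3, which had 0 to 9 reads per library, without Saline-SA 1 or 4 (-2.41 and -2.23). Of 73 nuclear subunits of oxidative phosphorylation none was past the limits and the median log2 fold change was 0.04. Cox4i1 averaged 806 ± 85.7 and 760 ± 85.8 FPKM. Of 73 mitochondrial ribosomal proteins none was past both limits, 8 had an unadjusted p of at most 0.05 and were lower and 1 was higher, and Mrpl23 (means 37.2 and 48.1 FPKM) had an adjusted p of 0.0398 in limma over 24 libraries. None of 42 genes of mitochondrial import and dynamics was past the limits. Acat1, a mitochondrial enzyme of ketone body and isoleucine breakdown, was downregulated: it was at 30.4, 26.4, 31.2 and 26.5 FPKM against 42.4, 34.8, 39.0 and 39.8, without overlap (log2 fold change -0.45 ± 0.088, SE). Cytosolic ribosomal proteins were lower in 54 of 76, with a median log2 fold change of -0.10 and only Rpl36 and Rpl3l past the limits. Rpl36 was at 752 and 650 FPKM in Saline-SA 3 and 4 and between 367 and 485 FPKM in the other 6 libraries, and its log2 fold change without these 2 was -0.12. The Rpl36 call ended without any 1 of 5 libraries (-0.29 to -0.43) and that of Rpl3l without Heroin-SA 2 or 3 or Saline-SA 3 or 4 (-0.85 to -1.06).

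**Figure D2:**
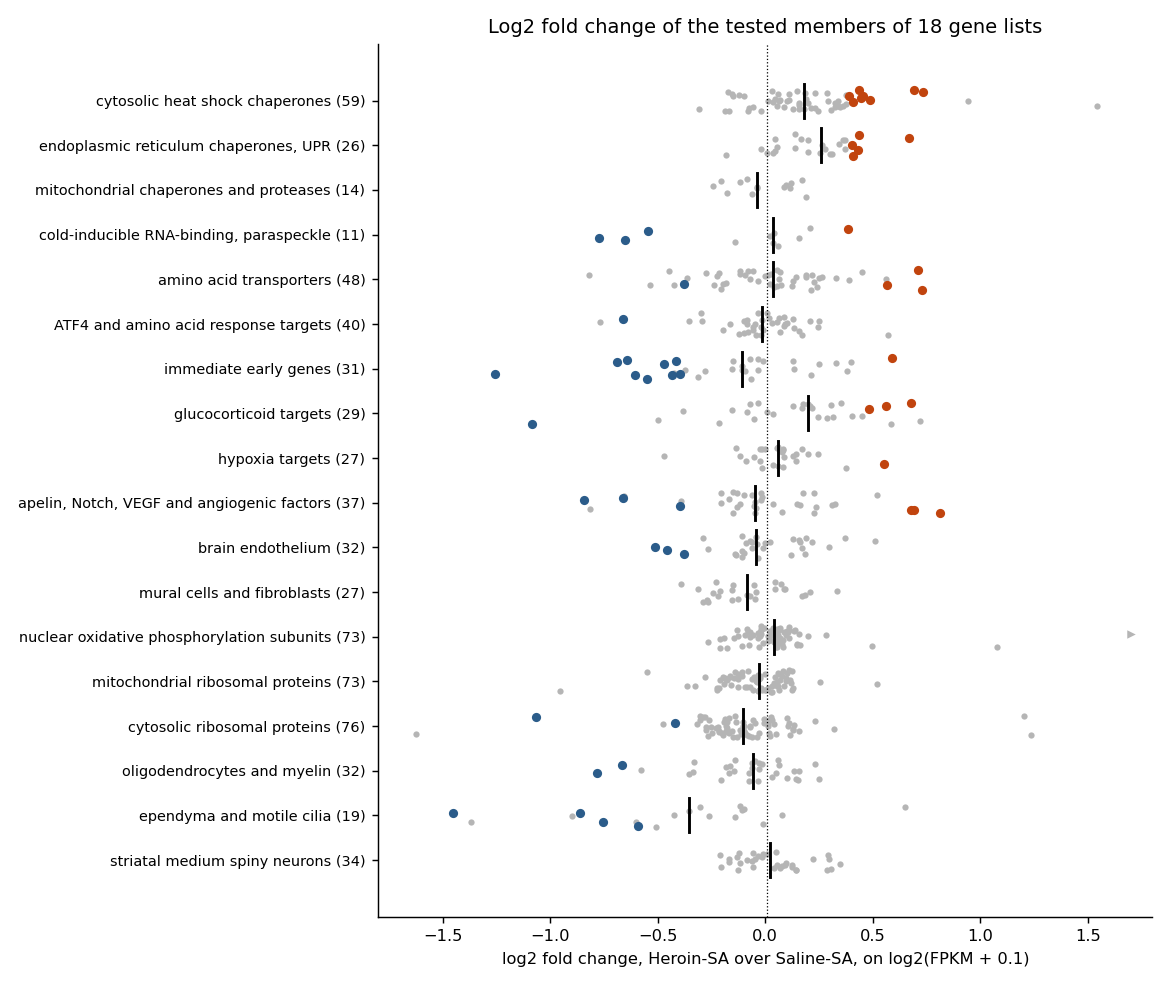
Log2 fold change, Heroin-SA over Saline-SA on log2(FPKM + 0.1), of each tested member of 18 gene lists, with the number tested in brackets. Red and blue points are upregulated and downregulated members, grey points are not past the limits, black bars are medians and the dotted line is the median of all genes; 1 point beyond 1.7 is drawn as a triangle at the edge. The medians of the cytosolic and ER chaperones are 0.18 and 0.26, and that of ependyma genes is -0.36.

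Some immediate early genes were lower in Heroin-SA. Of 31 tested, 9 were downregulated (Nr4a1, Sik1, Junb, Egr4, Fosb, Egr2, Arc, Gadd45g and Fos), Homer1 was upregulated and the median log2 fold change was -0.11. Nr4a1, an orphan nuclear receptor, was at 30.02, 34.5, 27.4 and 19.1 FPKM in Heroin-SA and at 39.2, 41.8, 39.1 and 45.9 FPKM in Saline-SA. Fosb was at 3.37, 4.89, 2.57 and 3.95 FPKM against 5.65, 5.63, 5.53 and 6.67. Junb was at 43.4, 49.1, 39.2 and 37.5 FPKM against 60.4, 60.6, 61.5 and 46.4. The groups did not overlap for Nr4a1 and Fosb, and for Junb Saline-SA 4 lay among the Heroin-SA libraries. Their log2 fold changes were -0.61 ± 0.16, -0.69 ± 0.19 and -0.43 ± 0.12 (SE), with adjusted p-values of 0.331 to 0.335 in limma. Heroin-SA 4 was the lowest library for 8 of the 9 downregulated genes, all but Fosb, and the mean level of the list was 2.96 there against 3.33 to 3.63 on the log2 scale in the other 7 libraries. Without Heroin-SA 4 the list held 4 downregulated and 3 upregulated genes, and Junb, Egr4, Sik1, Arc, Gadd45g and Fos were no longer past the limits, with log2 fold changes of -0.38, -0.37, -0.36, -0.32, -0.26 and -0.37. Sik1 was also under the fold limit without Saline-SA 4 (-0.37), and Arc not past the limits without Saline-SA 1 (-0.49) or 2 (-0.50). Without Saline-SA 3 and 4 together, 10 were downregulated. Homer1 lost its call without Heroin-SA 1, 2 or 4 or Saline-SA 1 or 4 (0.40 to 0.61). Fos, which averaged 8.39 ± 2.85 and 12.7 ± 2.51 FPKM (SD, n = 4 each), was not past the limits without Heroin-SA 3 or 4 or Saline-SA 1, 2 or 4 (-0.37 to -0.67), nor Gadd45g without Heroin-SA 1 or 4 or Saline-SA 1, 2 or 3 (-0.26 to -0.41), and the list gave no adjusted p under 0.05 over 24 libraries.

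Mt1, a metallothionein that binds zinc and copper and is induced by metals and glucocorticoids, was at 22.5, 31.6, 23.5 and 43.2 FPKM in Heroin-SA and at 51.1, 58.8, 67.9 and 72.1 FPKM in Saline-SA. The groups did not overlap and the log2 fold change was -1.08 ± 0.20 (SE, limma adjusted p = 0.255), between -1.27 and -0.96 without single libraries. Its paralog Mt2A was at 71.6, 51.1, 58.5 and 56.2 FPKM against 57.8, 63.0, 85.9 and 153 and was not past the limits, and Mt3 averaged 680 ± 92.4 and 652 ± 52.8 FPKM. Reads that match both Mt1 and Mt2A may have been lost or shared in the counting. The Mt1 promoter (ENSRNOG00000025764, rn6 chr19:11302125-11302938) is printed with each match to TGCNCNC, on either strand, in capitals. This pattern is a loose form of the metal response element core TGCRCNC, where R is A or G.
Mt1, GRCr8 chr19:10832926-10833225, minus strand: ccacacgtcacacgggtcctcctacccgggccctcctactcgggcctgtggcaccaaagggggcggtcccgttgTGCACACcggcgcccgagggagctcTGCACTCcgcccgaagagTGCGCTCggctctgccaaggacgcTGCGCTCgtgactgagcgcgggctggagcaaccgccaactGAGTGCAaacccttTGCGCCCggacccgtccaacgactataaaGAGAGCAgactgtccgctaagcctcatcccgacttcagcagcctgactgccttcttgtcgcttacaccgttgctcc
It holds 7 matches to the loose pattern. The match GAGAGCA, at -26 to -20 from the start, reads TGCTCTC on the other strand and is not the stricter core. The loose pattern is short and occurs in 49.6% of all promoters, and 5 or more matches occur in 0.669%. It was not particular to Mt1: all 4 tested metallothionein list genes with a promoter entry held it (Mt1, Mt2A, Mt3 and Slc30a1). Of these 4, 3 had 5 or more matches, and only Mt1 was past the limits. Of 29 glucocorticoid targets, Sgk1, Fam107a and Edn1 were upregulated and Mt1 was downregulated, and the median log2 fold change was 0.20, or 0.08 without Heroin-SA 4. Sgk1, a serum- and glucocorticoid-regulated kinase, was at 37.4, 48.1, 54.2 and 82.2 FPKM against 39.9, 33.2, 34.8 and 36.9, and was not past the limits without Heroin-SA 4 (0.35) or Saline-SA 2 (0.52). Fam107a was at 196, 170, 243 and 165 FPKM against 129, 163, 146 and 114, and its fold was under the limit without Heroin-SA 3 (0.37). No gene of 18 of the circadian clock was past the limits.

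Marker lists of cell types were compared next. None of 34 medium spiny neuron genes, 22 microglial genes, 25 glutamate receptor genes or 29 inflammatory genes was past the limits. None of 7 opioid peptide and receptor genes was either. Penk averaged 485 ± 75.01 and 540 ± 158 FPKM and Pdyn 133 ± 10.4 and 145 ± 21.9, and the delta receptor gene Oprd1 averaged 3.41 and 2.21 FPKM (log2 fold change 0.67 ± 0.34, SE). Oprm1, the receptor on which heroin mainly acts, was below the level filter, with means of 0.423 and 0.265 FPKM. Among interneuron genes, Trh, Chat, Calb2 and Lhx8 were downregulated of 17 tested. The list did not move one way, since 8 members had a positive and 9 a negative log2 fold change, with a median of -0.19. Calb2 (calretinin) was at 15.3, 14.2, 15.8 and 14.1 FPKM against 16.7, 23.6, 26.1 and 79.9, and Trh was at 6.62, 5.01, 5.94 and 5.93 FPKM against 7.47, 9.95, 8.44 and 23.0. Saline-SA 4 was far above the others for both, and without Saline-SA 3 and 4 their log2 fold changes were -0.42 and -0.55. The Calb2 call ended without any single Heroin-SA library (-0.99 to -1.04), and those of Chat and Lhx8 without any 1 of 6 libraries, all but Heroin-SA 4 and Saline-SA 1 (-0.47 to -0.59 and -0.50 to -0.70).

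Ependymal and motile cilia genes were lower in 17 of 19, with a median log2 fold change of -0.36 and Spa17, Tppp3, Cfap126 and Rsph1 downregulated. Spa17, a sperm flagellum and cilia protein, was at 6.43, 3.77, 5.06 and 5.50 FPKM in Heroin-SA and at 9.39, 7.92, 10.6 and 9.71 FPKM in Saline-SA. Tppp3, a tubulin polymerization protein, was at 20.7, 25.4, 21.9 and 21.4 FPKM against 35.0, 38.4, 35.4 and 27.0, and overlaps Lrrc36 on the opposite strand. The groups did not overlap for these 2 genes, and both calls held without any single library. Those of Cfap126 and Rsph1 ended without any 1 of 4 and 5 libraries: Heroin-SA 2 or 3 or Saline-SA 1 or 2 for Cfap126 (-1.08 to -1.38), and Heroin-SA 3 or 4 or Saline-SA 1, 2 or 3 for Rsph1 (-0.53 to -0.80). The mean level of the list was 1.68 and 1.87 in Saline-SA 1 and 2 but 0.93 to 1.29 in Saline-SA 3 and 4, against 0.71 to 1.32 in Heroin-SA, and 11 members were downregulated when Saline-SA 3 and 4 were left out. Kcne2, a potassium channel subunit abundant in choroid plexus and the only one of 4 choroid genes past the limits, was at 1.27, 1.81, 1.82 and 1.16 FPKM against 2.93, 2.87, 2.55 and 3.44.

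Of oligodendrocyte genes, Gpr62, an orphan receptor, and Ninj2 were downregulated of 32, whereas the myelin gene Mbp averaged 2256 and 2307 FPKM. Gpr62 was at 10.1, 9.49, 8.71 and 10.99 FPKM against 21.1, 16.5, 15.4 and 15.1, with no overlap (log2 fold change -0.78 ± 0.12, SE, limma adjusted p = 0.198). Of 28 astrocyte genes, Slc1a2 was upregulated and Agt, Sparc and Sox9 were downregulated. Agt, the precursor of angiotensin peptides, was at 31.3, 24.3, 30.4 and 46.5 FPKM against 38.8, 67.3, 82.7 and 76.0. Sparc was not past the limits without Heroin-SA 2 or 3 or Saline-SA 3 or 4 (-0.29 to -0.36), nor Sox9 without Heroin-SA 3 or 4 or Saline-SA 1, 3 or 4 (-0.43 to -0.59). Without Saline-SA 3 and 4 together no astrocyte gene was past the limits. Tnr was upregulated and C1ql1 downregulated among 10 genes of oligodendrocyte precursors, and the Tnr call ended without Heroin-SA 2 or 4 or Saline-SA 3 or 4 (0.61 to 0.78). Of 22 cortical and other glutamatergic neuron genes only Syt6 was past the limits (means 14.9 and 19.2 FPKM), and not without Heroin-SA 1 or 3 or Saline-SA 1 or 4 (-0.24 to -0.38). The list median was 0.23. Without Heroin-SA 4, which was low in these genes, it was 0.57 with 6 upregulated, and without Saline-SA 3, also low in them, it was -0.03. Lhx8 was also the only one past them of 19 septal and ventral forebrain genes, and none of 4 red blood cell genes was. Bst2 was upregulated among 24 interferon-stimulated genes, at 6.76, 8.41, 6.58 and 11.4 FPKM against 3.45, 2.48, 3.83 and 6.43.

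**Figure D3:**
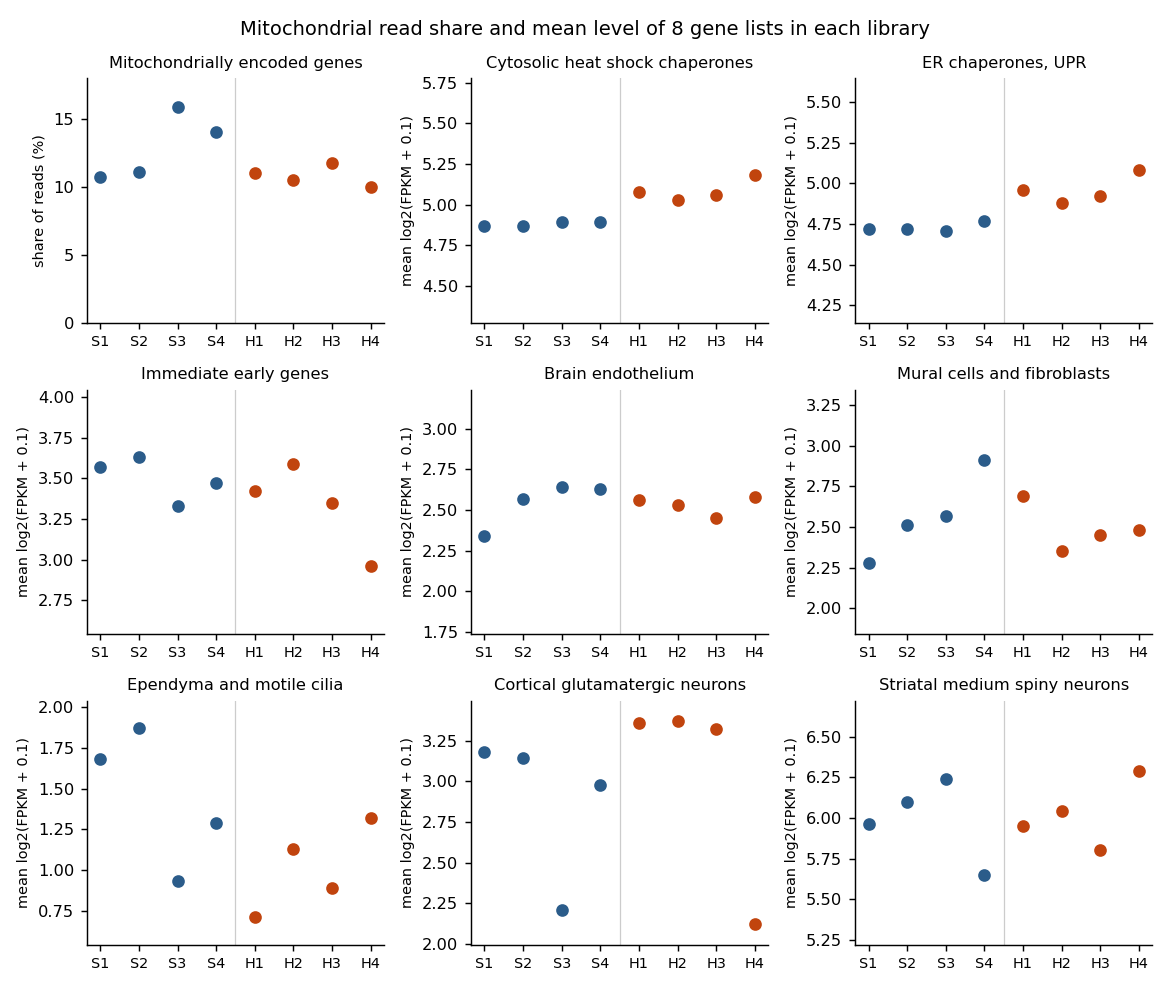
Share of reads on mitochondrially encoded genes (%, axis from 0) and mean log2(FPKM + 0.1) of 8 gene lists in Saline-SA 1 to 4 (S1 to S4, blue) and Heroin-SA 1 to 4 (H1 to H4, red); the list axes all span 1.5 log2 units and do not start at 0. The 2 chaperone lists separate the groups, the mitochondrial share is highest in S3 and S4, the immediate early level is lowest in H4, and the cortical list is lowest in H4 (2.12) and S3 (2.21).

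Potassium channels, which set neuronal excitability, included 7 upregulated and 2 downregulated genes of 74 tested, and the median log2 fold change was 0.15. Among the upregulated ones were Kcna2, Kcnh7, Kcnj12, Kcnma1, Kcns1 and Kcns2, and the downregulated ones were Kcnn4 and Kcne2. Kcnj12, an inward rectifier, was at 7.46, 6.78, 6.50 and 6.70 FPKM against 5.12, 6.08, 5.19 and 4.53, and its fold was under the limit without Heroin-SA 1 (0.35) or Saline-SA 4 (0.33). Kcnn4 was not past the limits without Saline-SA 4 (-0.92). Without Saline-SA 4 the list held 2 upregulated genes, without Heroin-SA 2 it held 3, without Saline-SA 3 it held 4, and without Saline-SA 3 and 4 together none. The study named 8 potassium channels, of which 7 were tested and 2, Kcnj12 among them, were past the limits. It drew these 8 from overlaps of its LPS-Heroin and Heroin-SA genes with a human opioid use disorder dataset, not from this comparison alone. It also named 22 genes as common to its 4 comparisons, of which 20 were tested, 7 were upregulated (Ankrd33b, Atrnl1, Enc1, Erc2, Gpr26, Htr2a and AABR07019412.1) and 5 were downregulated (Ache, Etnk2, Gchfr, Spa17 and Tppp3). The study chose both lists with these groups among its data, so these counts are not independent evidence of direction. It reports 6 sequenced samples per group, whereas 4 libraries per group were available here. Gpr26, an orphan receptor, was at 7.61, 7.42, 7.69 and 10.3 FPKM against 5.72, 4.20, 4.04 and 4.93 (log2 fold change 0.79 ± 0.15, SE, limma adjusted p = 0.255, 0.0324 in the fit over 24 libraries). Ankrd33b was not past the limits without Heroin-SA 2 (0.34) or Saline-SA 4 (0.33), Enc1 without Saline-SA 3 (0.41) or 4 (0.37), and Ache, acetylcholinesterase, without Heroin-SA 2 or 3 or Saline-SA 2 or 3 (-0.37 to -0.44). Htr2a, the serotonin 2A receptor, averaged 12.97 ± 2.10 and 9.12 ± 1.20 FPKM (SD, n = 4 each).

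The remaining genes with the smallest p-values belonged to no list. AABR07000699.1, an annotated protein-coding locus that overlaps Eya4 on the opposite strand, had the smallest p of all genes: it was at 2.23, 0.312, 0.471 and 0.240 FPKM in Heroin-SA and at 16.5, 20.8, 26.1 and 36.9 FPKM in Saline-SA (limma adjusted p = 0.0921, 0.00195 in the fit over 24 libraries). An entry named Uchl3, after a ubiquitin hydrolase (ENSRNOG00000046120, rn6 chr3:171092946-171134655), was at 0.314, 0, 0.215 and 0.384 FPKM against 10.1, 20.1, 1.05 and 8.91, so that the Saline-SA rats differed among themselves by more than 10-fold. It had 0 to 255 reads per library, and these values are of this locus alone. The splicing factor gene Sugp1 was downregulated (22.1, 20.2, 21.1 and 21.3 FPKM against 26.7, 27.2, 29.4 and 29.1), as was Tmem150a (11.6, 11.4, 10.5 and 8.67 FPKM against 15.02, 16.4, 16.8 and 18.3), which overlaps Rnf181 on the opposite strand. Both had no overlap between groups, although Sugp1 was at -0.35 without Saline-SA 3 and 4 together, and had adjusted p-values of 0.00394 and 0.00195 in limma over 24 libraries. The ubiquitin ligase Traip was upregulated (21.1, 18.3, 20.9 and 20.0 FPKM against 14.3, 14.4, 15.2 and 13.3). Rasgrp1, a Ras activator enriched in striatum, was upregulated as well (85.2, 102, 92.8 and 109 FPKM against 73.0, 75.7, 65.2 and 58.9). Also upregulated were Gpt (alanine aminotransferase), Sema7a, Porf1 and the small nucleolar RNA SNORA70 (10 to 31 reads per library), and also downregulated were Aga, Fam69c, Pced1b, Fv1, Fam227a, Srd5a1 (steroid 5-alpha-reductase) and Pcbd1, with log2 fold changes between -0.79 and 0.99. Other annotated genes share bases with Fam69c, Srd5a1, Dnajc3 and Ramp2 on the opposite strand and with Fv1, SNORA70, Tardbp, Ahsa2, Ahsa1, P4ha1, Dnaja1, Tnr and Penk on the same strand, so reads there may have been shared or lost. Of these, Srd5a1 was under the fold limit without Heroin-SA 4 or Saline-SA 4 (-0.36 and -0.37) and Gpt without Heroin-SA 4 or Saline-SA 1 (0.34 and 0.36).

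Others of the 78 genes with an adjusted p under 0.05 in the fit over 24 libraries are named here after their values were seen. Frrs1l, an auxiliary subunit of AMPA receptors, averaged 18.5 FPKM in Heroin-SA and 8.70 in Saline-SA (log2 fold change 1.05 ± 0.23, SE). Rasgrf2, a neuronal activator of Ras and Rac, averaged 3.22 and 1.20 FPKM (1.36 ± 0.31). Elavl3, a neuronal RNA-binding protein, averaged 39.2 and 26.6 FPKM (0.53 ± 0.14). Hif1an, the asparagine hydroxylase that restrains HIF, averaged 6.41 and 3.73 FPKM (0.77 ± 0.19). Exosc2, a subunit of the RNA exosome, was downregulated, with means of 14.2 and 19.1 FPKM (-0.43 ± 0.095), as was the chromatin assembly factor gene Chaf1a, with 4.08 and 6.43 FPKM (-0.65 ± 0.14). In all 6 the groups did not overlap.

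Whether the effect of heroin differed between self-administration and injection was tested as the difference of the log2 fold changes over 16 libraries. The comparisons share no libraries, but they differ in route, dose, duration, housing, light cycle and time of killing, which cannot be told apart. Of 15151 genes, 664 (4.38%) were past the limits for the difference, and 993 reached an unadjusted p of 0.05. None passed after adjustment in limma, where the lowest adjusted p was 0.285. Among the 14658 genes tested in both comparisons, 60 were past the limits in each, 48 in the same direction and 12 in opposite directions. The 48 were 6.03% of the 796 called with self-administered and 10.7% of the 447 called with injected heroin. Of the 796, 67.6% had the same sign with injected heroin, against 58.4% of all genes.

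Chaperones and cold-inducible genes were among those with a difference past the limits. With injected heroin, 465 of all 15143 genes tested were past the limits, 212 upregulated and 253 downregulated. The median log2 fold change with injected heroin was 0.00 for cytosolic chaperones (2 of 59 upregulated) and -0.02 for ER chaperones (none of 26). The difference was past the limits and positive for 9 cytosolic and 8 ER chaperones and negative for none. Dnajb2 had a log2 fold change of 0.39 with self-administered and -0.17 with injected heroin, a difference of 0.57 ± 0.10 (SE, limma adjusted p = 0.335). Pspc1 had -0.54 and 0.06 (difference -0.60 ± 0.11) and Rbm3 -0.77 and 0.06 (-0.83 ± 0.20), and the difference was past the limits for all 3 downregulated genes of that list. Slc38a2 had 0.71 and 0.01 (0.70 ± 0.12, limma adjusted p = 0.285), and Apln 0.69 and 0.01 (0.68 ± 0.16). Of the immediate early genes, 10 of 31 were downregulated with injected heroin, with a median of -0.27, and of the difference 1 member was past the limits in each direction. Nr4a1 had -0.61 and -0.91 (difference 0.30 ± 0.34), and Fosb -0.69 and -0.59. Among oligodendrocyte genes the median was -0.05 with self-administered and -0.35 with injected heroin, where 6 of 32 were downregulated.

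The levels in the injected groups also place those of the SA groups, although the experiments were run separately. Slc38a2 averaged 39.2 ± 4.31 FPKM in Saline-Heroin and 38.8 ± 2.09 in Saline-Saline, between 30.6 ± 1.81 in Saline-SA and 50.2 ± 5.18 in Heroin-SA (SD, n = 4 each). Apln averaged 11.7 ± 1.69 and 11.5 ± 1.39 FPKM in the injected groups, close to the 11.1 ± 0.223 of Saline-SA, and Pspc1 averaged 18.1 ± 1.061 and 17.4 ± 0.261, above the 15.6 ± 1.61 of Saline-SA. For these 2 genes Heroin-SA was the group that stood apart. For Mt1 and Tmem150a it was Saline-SA: Mt1 averaged 28.5 ± 3.96 and 32.5 ± 6.53 FPKM in the injected groups and 30.2 ± 9.56 in Heroin-SA, against 62.5 ± 9.39 in Saline-SA. Tmem150a averaged 11.3 ± 0.764 and 10.8 ± 0.800 FPKM in the injected groups and 10.5 ± 1.33 in Heroin-SA, against 16.6 ± 1.36 in Saline-SA. Hspa5 averaged 157 ± 32.2 and 155 ± 12.5 FPKM in the injected groups, between the 133 ± 12.2 of Saline-SA and the 178 ± 25.2 of Heroin-SA. The chaperones were not all placed alike. Dnaja1 averaged 187 and 181 FPKM in the injected groups and 190 in Heroin-SA, against 139 in Saline-SA. Chordc1 (25.3 and 21.8 FPKM) and Dnajb2 (87.2 and 98.5) lay nearer Saline-SA (20.5 and 89.3) than Heroin-SA (33.3 and 117). Saline-SA was also the lowest group for Rasgrp1 (68.2 against 97.2 in Heroin-SA and 108 and 95.2 in the injected groups). The same held for Gpr26 (4.72 against 8.26, 12.9 and 8.95).

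**Figure D4:**
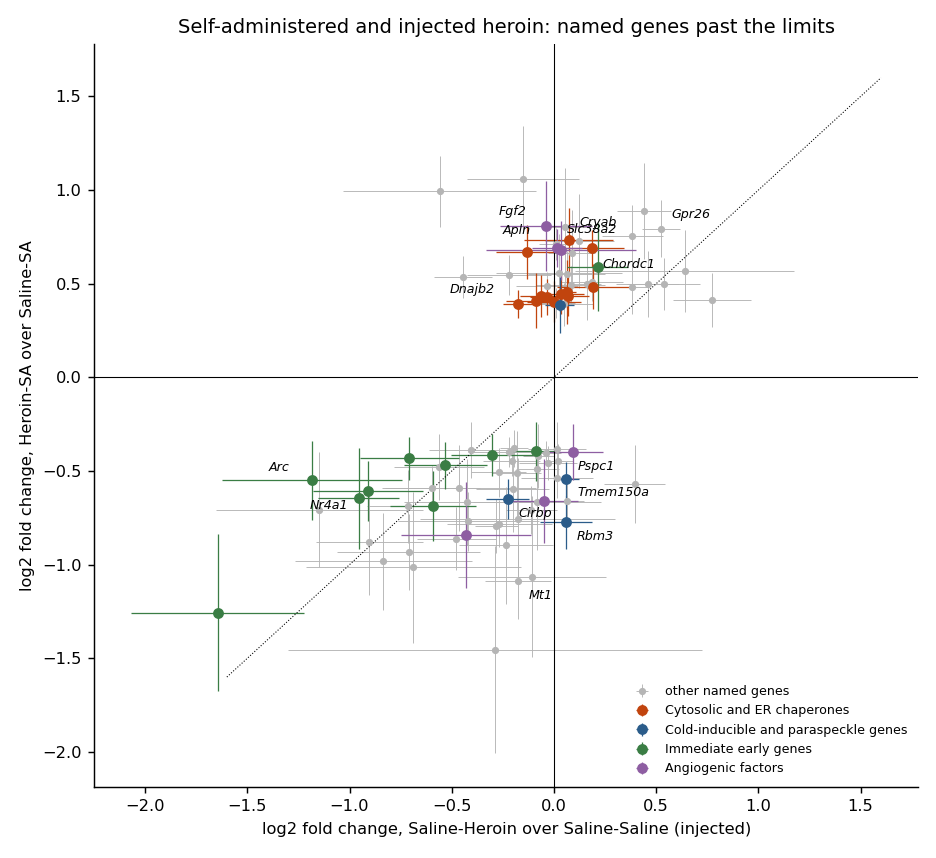
Log2 fold change of 93 named genes past the limits in the self-administration comparison (vertical axis) against their log2 fold change with injected heroin (horizontal axis), with bars of 1 SE. The dotted line marks equal effects. The 5 genes not drawn had a larger change on either axis, as Uchl3 and AABR07000699.1 did with self-administered heroin, or no injected value. Chaperones (red) and the cold-inducible and paraspeckle genes (blue) lie between -0.23 and 0.19 on the horizontal axis, and the 9 downregulated immediate early genes (green) lie in the lower left.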

How the data were processed

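Nucleus accumbens RNA from single rats was made into strand-marked poly-A libraries, of which the deposited values hold 4 per group. The authors trimmed reads with fastp, aligned them to rn6 with HISAT2, counted them per gene with featureCounts and deposited FPKM values for 32545 genes; tool versions, the annotation release and the strand setting of the counting are not given in the sources used here. Read counts were recovered from the deposited FPKM and gene lengths (100% of values whole within 0.01). Replicates are separate animals of an experiment run once.

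Genes with a mean of at least 0.5 FPKM over the 8 libraries were tested on log2(FPKM + 0.1), so that fold changes of low genes are understated, with limma-trend (limma 3.58.1, R 4.3.3), 2-sided, with Benjamini-Hochberg adjustment over all genes tested. A gene was past the limits at an unadjusted p of at most 0.05 and a 1.3-fold change. The difference from injected heroin was a contrast in a fit of 16 libraries. On simulated data with 100 genes changed for each fold size in the Heroin-SA against Saline-SA comparison (15045 genes), 45% of 1.3-fold and 100% of 2-fold changes passed the limits, 6% and 93% passed adjustment, and 2.03% of unchanged genes passed the limits. Changed genes were drawn from those averaging at least 100 reads, and every gene was given the same relative spread. No difference between libraries other than depth was simulated. These rates may therefore not hold for genes with few reads or for libraries as unlike as those here. Short genes can have few reads at a high FPKM, and 94 of the 819 genes past the limits averaged under 10 reads.

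Named genes were the 30 with the smallest p past the limits that had a regular symbol and at least 10 reads on average, the 4 with the smallest p past the limits in each of 37 lists (and the 2 with the highest level where fewer than 2 passed), the genes the study named, and the 5 with the smallest p for the difference from injected heroin. This gave 137 genes. A further 22, among them Hsph1, Dnajc3, Dnajc5, Ahsa2, Fosb, Fos, Arc, Homer1 and AABR07000699.1, and other list members given by their means or potassium channel symbols, were chosen after their values were seen. Members and lists were chosen with earlier results of these data known. Promoters came from RefSeq (GRCr8) by symbol. Alternatives were other pseudocounts, filters, scalings and samples in the fit, limma-voom on the recovered reads, a replicate block and the omission of each library. Some genes are not reported here.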

Additional observations from a re-analysis of the deposited data

Results flagged for a closer look

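In 10 of 90 groups of 4 libraries examined for the named genes, 1 library lay beyond the 95% limit of Dixon's ratio for 4 values; chance gives about 5% of groups. Slc7a5 was at 12.85 FPKM in Heroin-SA 4 against 16.84 to 17.16 in the other Heroin-SA libraries. Mfsd2a was at 7.02 FPKM there against 8.258 to 8.403, and Gpr26 at 10.33 FPKM against 7.423 to 7.686. In Saline-SA 4, Calb2 was at 79.88 FPKM against 16.7 to 26.06 in the other Saline-SA libraries and Trh at 23.01 FPKM against 7.475 to 9.951. Junb was at 46.37 FPKM in the same library against 60.36 to 61.45, and Fosb at 6.675 FPKM against 5.534 to 5.652. Chordc1 was at 22.85 FPKM in Saline-SA 2 against 19.59 to 20.01, and Apln at 11.43 FPKM in Saline-SA 3 against 10.95 to 11.03. AABR07000699.1 was at 2.228 FPKM in Heroin-SA 1 against 0.2404 to 0.4707.

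The effect of self-administered heroin less that of injected heroin had its 5 smallest p-values, among genes with a regular symbol, in Slc38a2 (0.70 on the log2 scale), Tmem150a (-0.72), Pspc1 (-0.60), Dnajb2 (0.57) and Hist1h2bg (0.98). Hist1h2bg, a histone gene, was at 44.4, 46.5, 33.3 and 46.0 FPKM in Heroin-SA and at 28.0, 28.6, 28.3 and 31.5 FPKM in Saline-SA, a log2 fold change of 0.54, against -0.45 with injected heroin. None of the 5 differences passed adjustment over all genes in limma.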

How the results depend on the processing

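Of 1697 values of 85 genes named by the rule and past the limits under the alternatives, 1516 stayed past them and 181 did not; 40 genes stayed past them under every alternative and none changed sign. The 819 genes past the limits became 1725 with no fold limit and 645 to 1211 without single libraries (645 without Saline-SA 4, 1211 without Heroin-SA 3). Without Saline-SA 3 and 4 together, a choice made after seeing their mitochondrial share, they became 544. The count with an adjusted p under 0.05 in limma, 0 over the 8 libraries (1725 at an unadjusted p under 0.05), was 78 in the fit of all 24 libraries, 1 with a pseudocount of 1 (AABR07000699.1), 0 to 1 without single libraries (AABR07000699.1 without Heroin-SA 1, SNORD19 without Heroin-SA 4) and 2 without Saline-SA 3 and 4 together (RGD1561252 and LOC100911774). At an adjusted p under 0.1 it was 1. The cause of these shifts was not tested, other than that the fit of 24 libraries estimates the spread from more samples. It takes that spread as equal in the SA and the separately run injected groups, which was not tested either. The 664 genes past the limits for the difference from injected heroin became 542 to 1001 without single libraries (1001 without Heroin-SA 3), with 0 to 1 at an adjusted p under 0.05 (SNORD19 without Heroin-SA 4). The difference in mitochondrial share lay between -2.84 and -1.13 percentage points without single libraries. Replicate numbers did not pair the libraries (correlations of deviations -0.072 to 0.048), and with a replicate block 758 genes were past the limits and 595 for the difference, with none at an adjusted p under 0.05 in the first. limma-voom on the recovered reads gave 812, none of them at an adjusted p under 0.05.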
